A study of Caenorhabditis briggsae with 13 samples.

Results

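A set of 42 genes of the nematode Caenorhabditis briggsae, out of 19528 genes on the array, had a transient signal that was highest at the 55-cell embryo. Members were chosen from the measured values. A gene's level is the log2 of its intensity minus the 75th percentile of log2 intensities of the same array, averaged over the probes of the gene and then over the arrays of a stage. A level of 0 therefore equals the 75th percentile of the probes of the array, and 1 unit is a doubling. A member had its highest mean level at 55 cells, a level there of at least -1, at least 2 units more at 55 than at 4 cells, at least 0.5 more than at 28 cells and at least 2 more than at 190 cells.

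The samples were total RNA of 50 whole embryos each of the wild isolate AF16, with 2 arrays of the 4-cell stage, 3 of embryos with 28 cells (55 min later), 3 of embryos with 55 cells (80 min), 2 of embryos with 95 cells (120 min) and 3 of embryos with 190 cells (160 min). No genotype, treatment or strain differed between the stages, and arrays of a stage were separate biological samples per the labels. Before labelling with Cy3 the RNA went through repeated in vitro transcription, which amplifies some transcripts more than others and limits levels to comparisons of a gene with itself. In RNA of whole embryos, fewer cells of a type and less RNA per cell cannot be told apart.

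In nematodes the first divisions run on RNA that the mother placed in the egg, and the embryo's own genome is switched on while maternal RNA is degraded. In C. elegans, a close relative of C. briggsae, many of the first embryonic genes are active in a few cells for a short time, among them transcription factors that set the fate of single founder lineages. Gastrulation, the inward movement of the future gut, muscle and germ cells, begins and proceeds over these cleavage stages. The array names its genes by WormBase identifier, and 0 of 22727 genes of the RefSeq table of C. briggsae (assembly CB4) carried such an identifier. Roles, chromosomes and sequences of the members are therefore not given, and neither are the levels of known lineage markers.

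2 points about the arrays bear on all values. On 4 arrays (95-cell A, 28-cell B, 190-cell B and 55-cell A) the tag for developmental stage said 4-cell although the title gave the later stage, and the title was followed. For 28-cell C the deposited scanner file duplicates that of 190-cell C, so the deposited series table was used for levels, and detection flags and scan date rest on the other 12 arrays. The 75th percentile of intensity ranged from 234.8 to 546.6 over the 13 arrays, and the share of probes well above background from 39.7% to 67.9%. The 3 arrays of the second scan date (55-cell C, 95-cell B and 190-cell C) had the 3 highest shares. The arrays at 4 cells had the lowest, 40.5% and 39.7%. The dimmest intensity marked well above background was 17.5 and 25.7 at 4 cells and 28.1 on 95-cell A. It was 10.3, 10.6 and 4.5 on the 190-cell arrays. Detection at different stages was thus not judged at a like limit, and the effect of this was not tested.

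The median over the members was low at 4 cells, had risen most of the way by 28 cells, peaked at 55 cells and was lower at each later stage. It stood at -4.55 in 4-cell embryos, -0.40 at 28 cells, 0.87 at 55 cells, -0.81 at 95 cells and -2.71 in 190-cell embryos. Single members departed from this course: the highest 4-cell level was -0.20, and 2 members were not lower at 190 than at 95 cells. These levels chose the members, so they describe the set and support nothing. At the peak the members spanned -0.96 to 4.61, and 30 of the 42 lay above the 75th percentile of their arrays. The 3 arrays at 55 cells gave medians of 0.79, 0.75 and 0.82, close to each other. The median member varied between arrays of a stage with an SD of 0.25 at 55 cells and 0.65 at 190 cells.

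**Figure D1:**
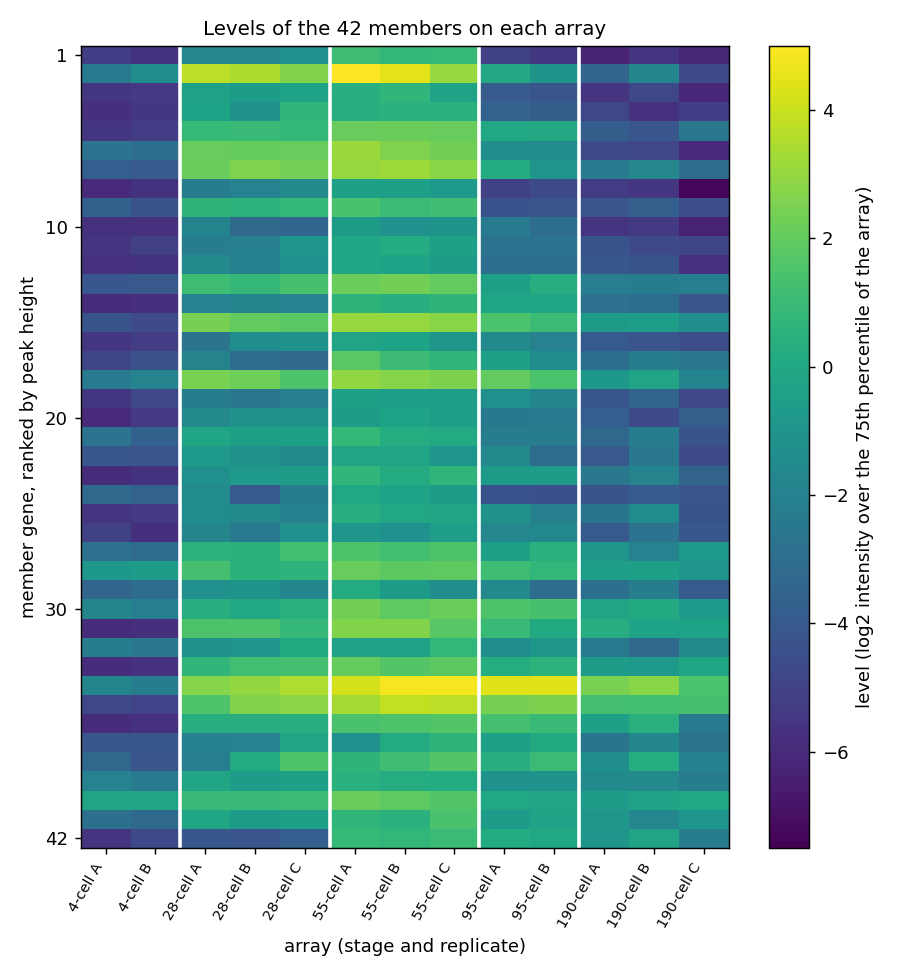
Level of each of the 42 members (rows, ranked by peak height, the 55-cell level minus the higher of the 4-cell and 190-cell levels) on each of the 13 arrays (columns), as log2 intensity over the 75th percentile of the array. White lines part the stages, and the brightest block of most rows is that of the 3 arrays at 55 cells.

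**Figure D2:**
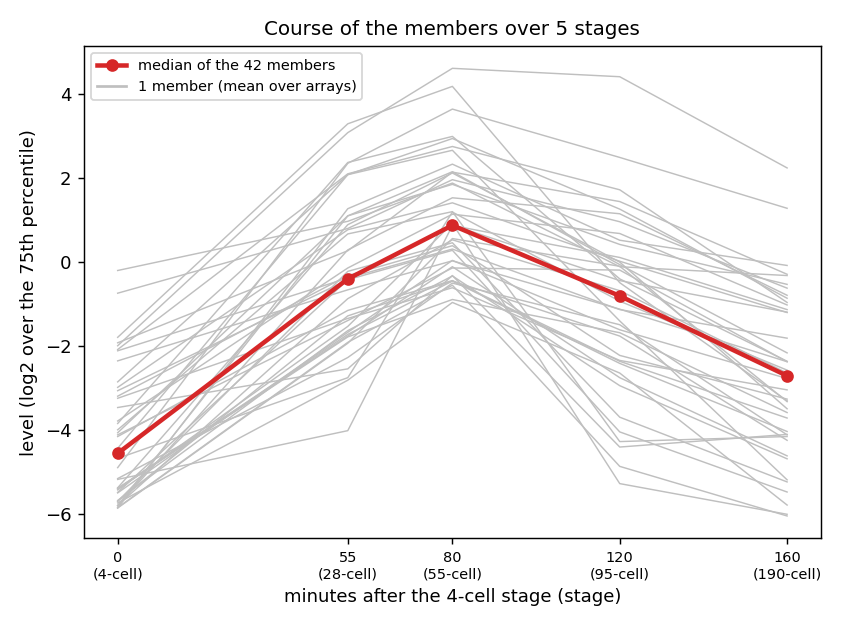
Mean level of each member (grey) and the median over the 42 members (red) against minutes after the 4-cell stage. The median stands at -4.55, -0.40, 0.87, -0.81 and -2.71, and all courses have their highest point at 55 cells by the choice of members.

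Peak height, the 55-cell level minus the higher of the levels at 4 and 190 cells, ranged from 2.01 to 6.35 with a median of 3.42. For 32 members the lowest 55-cell array lay above the highest of the other 10 arrays. Over all genes 230 (1.18%) had that pattern, and nothing is read from the contrast because the rule used the same levels. The lowest 55-cell array lay above the highest 28-cell array for 33 members (12.8% of all genes), and above the highest 95-cell array for 39 members (17.2% of all genes). The nearest stage was thus the one in which single arrays most often overlapped: the 55-cell mean was above the 28-cell mean by a median of 1.19, and by 0.53 at the least.

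WBGene00029354 had the largest peak height, 6.35. Its levels were -5.18 and -5.67 at 4 cells, -1.71, -1.69 and -1.19 at 28 cells, 1.14, 0.79 and 0.85 at 55 cells, -5.05 and -5.48 at 95 cells, and -6.28, -5.56 and -6.16 at 190 cells. No array of another stage came near the 3 arrays at 55 cells, and the mean level was -5.27 at 95 cells, against -5.42 at 4 cells. At 55 cells it stood 5.47-fold above 28 cells and 72.9-fold above 95 cells. On 95-cell A not every probe of it was well above background, so the ratio to 95 cells rests partly on dim signal. Neither 4-cell array had a probe of it well above background, so its level there is only bounded, and the level at 55 cells was at least 23.7-fold that at 4 cells.

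WBGene00029380 came next with a peak height of 5.97, at a far higher level of its own. It read -2.28 and -1.29 at 4 cells, 3.74, 3.47 and 2.65 at 28 cells, 4.99, 4.50 and 3.05 at 55 cells, 0.04 and -1.02 at 95 cells, and -3.43, -1.82 and -4.64 at 190 cells. Here the stages with the peak overlapped: 55-cell C lay below 28-cell A and B. Both groups of arrays lay above all those at 95 and 190 cells, and the spread between arrays was widest at 190 cells.

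Not every member left the peak quickly. WBGene00026645, with the highest 55-cell level of the set, read -1.76 and -2.23 at 4 cells, then 2.72, 2.99 and 3.53 (28 cells), 4.17, 4.84 and 4.82 (55 cells), 4.38 and 4.44 (95 cells), and 2.49, 2.78 and 1.45 (190 cells). Both 95-cell arrays lay inside the range of the 55-cell arrays. Its 55-cell mean was only 1.15-fold its 95-cell mean, and its place in the set rests on the later difference to 190 cells, 5.18-fold. WBGene00023862 was the closest case: its 55-cell mean exceeded its 95-cell mean by 0.05, with levels of -0.46 and 0.08 at 95 cells against -1.17, 0.12 and 0.63 at 55 cells. In all, 4 members lay within 0.5 of their 95-cell level.

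Detection rose after 4 cells, and its later course depended on the measure. The limit of detection also differed between arrays, as given above. A member counted as detected when every flagged array of the stage had the same probe well above background. This held for 20 members at 4 cells (47.6%), for all 42 in the 3 middle stages, and for 40 at 190 cells (95.2%). Over all genes these shares were 47.2% in 4-cell embryos and, in the later stages in order, 60.4%, 61.4%, 55.7% and 62.5%. The members' count was at its ceiling in the middle stages and could not show a peak there. Members with every probe above background on every flagged array numbered 5, 34, 41, 33 and 29 over the stages in order. For all genes the matching counts were 5397, 6868, 7280, 6617 and 7378. For 17 members (40.5%) no probe was above background on either 4-cell array, against 48.6% of all genes. At 190 cells each member had a probe above background on at least 1 array, and 20.2% of all genes had none. No member had a saturated spot on an array with flags. All 42 members would pass a filter that keeps probes well above background on every flagged array of at least 1 stage, as would 13461 of all 19528 genes. The rule's limit of -1 on the 55-cell level already favoured detection at that stage. Passing the filter and the members' detection at 55 cells are therefore descriptions and no separate check of the set.

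In 9 members each probe was above background on at least 1 of the 4-cell arrays, and their level at 55 cells was 4.24-fold to 97.1-fold that at 4 cells, with a median of 12-fold. In the others the ratio is a lower bound, for which each 4-cell signal was raised, where it was smaller, to the dimmest signal that its array still marked as well above background. The bounds ran from at least 4.96-fold to at least 120-fold in the 16 members with some probes not above background, and from at least 6.42-fold to at least 86.4-fold in the 17 with none above it. Against 190 cells the 55-cell level was 4.01-fold to 178.0-fold higher in 35 members, with a median of 7.04-fold, and at least 8.22-fold to at least 190.0-fold higher in the 7 with some probes not above background at 190 cells. Against 95 cells it was 1.04-fold to 72.9-fold higher, with a median of 3.21-fold. At 95 cells each probe was above background on at least 1 array, but in only 33 members was every probe so on both arrays.

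The first interval asked how early the members came on. 40 of the 42 were called higher at 28 than at 4 cells and none lower (limma over all 19528 genes and 13 arrays, Benjamini-Hochberg adjusted p under 0.05). Over all genes 13.1% were called higher and 20.6% lower, and the shares were 23.7% and 40.5% among the 5154 genes with a 55-cell level of at least -1. The lowest 28-cell array lay above the highest 4-cell array in 41 members (18.9% of all genes). The rule sets no limit on this difference but was applied to the same arrays, so the members' count is not independent of their choice. The fitted change over the 40 was 1.17 to 7.24 on the log2 scale, with a median of 3.91. 9 of them had each probe above background on a 4-cell array and stood 2.25-fold to 33.7-fold higher at 28 cells, with a median of 4.57-fold. The 15 with some probes not above background at 4 cells were at least 1.74-fold to at least 49.0-fold higher, and the 16 with none above it at least 1.78-fold to at least 47.7-fold. The median change of all genes over this interval was -0.81, and relative to it all 42 members were called higher, as were 4006 of all 19528 genes. With dim values set to a common floor of -3.54 that median was 0. The median level of all genes lay below this floor at 4 cells (-4.59) and at 28 cells (-4.3), so the 0 was close to fixed by it.

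WBGene00036235 had the largest fitted difference over the first interval, although some of its probes were not above background at 4 cells. Its levels were 1.58, 2.63 and 2.84 at 28 cells, against -4.81 and -4.97 at 4 cells, a change of 7.24 (SE 0.37, limma adjusted p = 7.29e-08), or at least 49.0-fold. The gene then read 3.32, 3.83 and 3.76 at 55 cells, 2.45 and 2.53 at 95 cells, and 1.25, 1.22 and 1.36 at 190 cells. It stood 2.44-fold higher at 55 than at 28 cells, and all 3 arrays at 190 cells lay above both at 4 cells. WBGene00042188, the next in order, had no probe above background at 4 cells. It read 1.50, 1.49 and 0.81 at 28 cells, against -5.93 and -5.77 at 4 cells, a fitted change of 7.12 (SE 0.40, limma adjusted p = 1.31e-07), or at least 30-fold. As both are bounds, the order of these 2 genes is not settled.

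The 2 members that did not pass the test had their larger step in the second interval. WBGene00039434 read -4.06, -4.22 and -3.76 at 28 cells, against -5.58 and -4.75 at 4 cells, a fitted change of 1.15 (SE 0.49, limma adjusted p = 0.0905). At 55 cells it read 0.86, 0.76 and 1.00, at least 22.6-fold above 28 cells, where some of its probes were not above background, and its difference of levels (4.89) was the largest of the members over the second interval. It then read 0.20 and 0.01 at 95 cells, and -0.98, -0.22 and -2.20 at 190 cells, the member nearest to the limit on the difference to 190 cells (2.01). WBGene00030558 had the smallest difference over the first interval, with -1.46, -3.96 and -2.20 at 28 cells, against -3.34 and -3.58 at 4 cells. The change was 0.92 (SE 0.56, limma adjusted p = 0.201), and the 28-cell arrays spread over both sides of the 4-cell levels. This change averages probes that moved in opposite directions. The A probe rose from -4.58 at 4 cells to -2.09 at 28 cells, and the B probe fell from -2.33 to -2.98. Not all of the gene's probes were above background at 4 cells. At 55 cells the gene read -0.03, -0.26 and -0.65.

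Expressed as a share of the total log2 difference between 55 and 4 cells, a median of 76.3% was present at 28 cells, with a range from 19.1% to 90.9%. The share was at least 50% in 39 members. Levels at background at 4 cells understate the whole difference, so these shares are relative to the measured values.

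**Figure D3:**
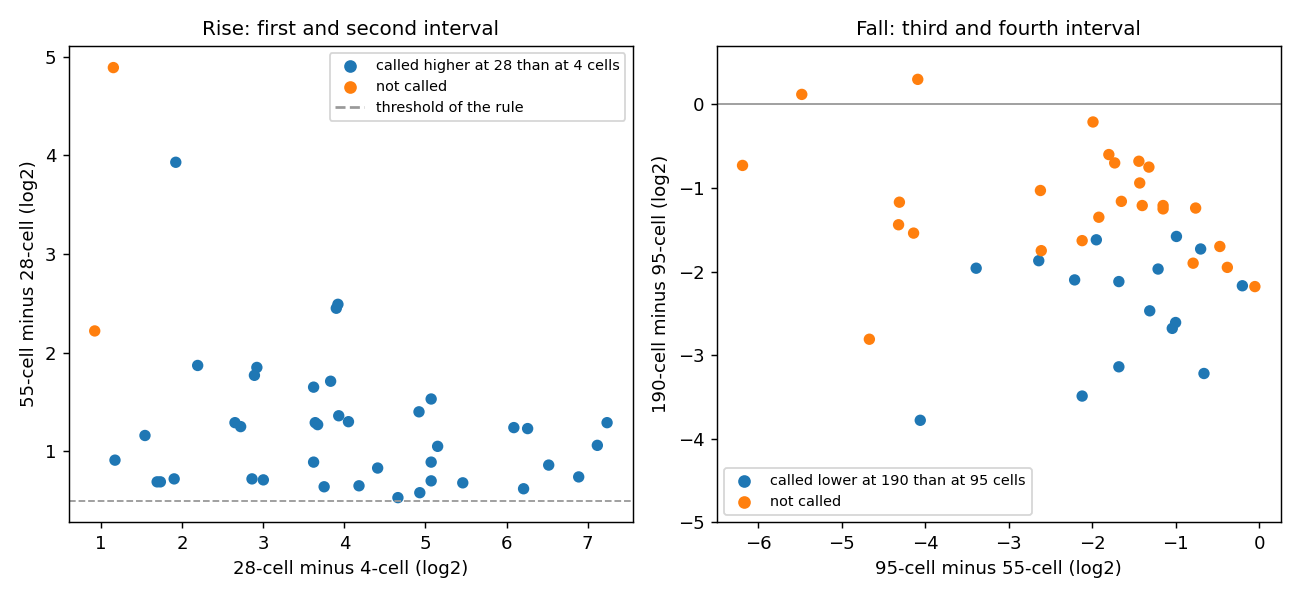
Left, the change of each member from 4 to 28 cells against that from 28 to 55 cells. Right, the change from 55 to 95 cells against that from 95 to 190 cells (all log2). Each point is 1 of the 42 members and blue points passed the limma test named in the legend: 40 on the left and 16 on the right. The dashed line is the rule's limit of 0.5.

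The decline after the peak differed among the members. As a share of the log2 difference between 55 and 190 cells, a median of 54.1% had been lost by 95 cells, with a range from 2.4% to 107.9%. It was at least 50% in 24 members. The second highest stage was 28 cells for 27 members and 95 cells for 15. The lowest stage was 4 cells for 32 members, 190 cells for 8 and another stage for 2.

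Over the last interval 16 of the 42 members were called lower at 190 than at 95 cells and none higher (limma adjusted p under 0.05). Over all genes 0.824% were called lower and 1.59% higher. Among the genes with a 55-cell level of at least -1 the shares were 1.88% and 0.407%. The rule requires a low 190-cell level, which shares the 190-cell arrays with this comparison, and limits the 95-cell level only from above. The fitted changes of the 16 ran from -3.78 to -1.58 with a median of -2.14. Of the 26 not called, 24 also had a lower mean at 190 cells, and the median over all 42 members was -1.63, against -0.04 over all genes. The lowest 95-cell array lay above the highest 190-cell array in 34 members (10.6% of all genes).

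The number of members called over this interval depended on single arrays. It was 6 without 95-cell A, 8 without 95-cell B and 9 each without 190-cell A or 190-cell C, with the lone 95-cell array assumed to vary like the others. With scan date as a block and without 28-cell C it was 25, and within the first scan date, with a single 95-cell array, 12. On the second scan date, which allows no test, 190-cell C lay below 95-cell B for 40 of the 42 members, and on the first date the 190-cell mean lay below 95-cell A for 40. The rule favoured this order, because it required low 190-cell levels on the same arrays. The share of all genes with this order was not counted, so both counts are descriptions.

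WBGene00038738 had the largest fall over the last interval. It read -4.73, -4.86 and -5.96 at 190 cells, against -1.31 and -1.49 at 95 cells, a change of -3.78 (SE 0.39, limma adjusted p = 0.000517). Some of its probes were not above background at 190 cells, so the level at 95 cells was at least 11.4-fold that at 190 cells. The gene had read -2.73 and -2.97 at 4 cells, 2.11, 2.05 and 2.09 at 28 cells, and 3.12, 2.57 and 2.31 at 55 cells. WBGene00030010 read -3.83, -4.16 and -2.48 at 190 cells, against -0.06 and 0.06 at 95 cells, a change of -3.49 (SE 0.42, limma adjusted p = 0.00148). At 55 cells it read 2.10, 2.17 and 2.09, so that only 37.9% of its log2 difference had been lost by 95 cells.

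Other members had ended their decline by 95 cells. WBGene00030547 read -4.22, -3.74 and -4.49 at 190 cells, against -4.34 and -4.21 at 95 cells, with overlapping arrays (change 0.12, SE 0.32, limma adjusted p = 1.0). It had stood at 1.43, 1.01 and 1.17 at 55 cells, 44.5-fold above 95 cells, although on 95-cell A not every probe was well above background. WBGene00030558 had the same form, with -4.28, -3.85 and -4.18 at 190 cells, against -4.37 and -4.43 at 95 cells. In both, the whole measured difference from the peak was present at 95 cells. The A probe of each was dim there, at -5.53 and -5.59 in the same order, so a further fall may not have been seen. A missed call does not show that the levels were equal.

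Whether the members were back at their first level by the last stage was compared between 190 and 4 cells. 23 of the 42 were called higher at 190 than at 4 cells, 1 lower, and 18 were not called (limma adjusted p under 0.05). The rule limits both levels by their distance from the 55-cell level on the same arrays, so these counts too are not independent of the choice of members. Over all genes 14.8% were called higher and 42.3% lower. Among the genes with a 55-cell level of at least -1 the shares were 24.8% and 45.2%. The share of all genes called lower also leaned on dim values. With these set to a common floor, 2591 of all 19528 genes were called higher and 4073 lower, against 2885 and 8254 without it. Relative to the median change of all genes, -1.16 over this comparison, 32 members were called higher and 1 lower. Of all 19528 genes, 4758 were then called higher and 1942 lower. That median rested on levels near background, and with the common floor it was 0. The floor, -3.54, lay above the median level of all genes at 4 cells (-4.59) and at 190 cells (-4.61). A median change of 0 was thus close to fixed by the floor and says nothing about the shift. The fitted changes of the 23 ran from 1.05 to 6.17 with a median of 2.10. The 18 that missed the threshold ran from -1.51 to 1.12, 9 of them above 0, which does not show that they were back at the same level.

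3 of the 23 had each probe above background on a 4-cell array and were 3.1-fold to 18.8-fold higher at 190 cells, with a median of 3.43-fold. Another 9 had some probes not above background at 4 cells, and 8 of them were at least 1.06-fold to at least 23.3-fold higher. The other 11 had no probe above background there, and 9 of them were at least 1.04-fold to at least 11.9-fold higher. For the remaining 3 no bound over 1 could be given. The count therefore leans on levels near background: with dim values set to a common floor 13 members were called higher and 1 lower, and with normexp background correction, without 28-cell C, 13 higher and 6 lower. Of all 19528 genes, the normexp setting called 2240 higher and 12854 lower. The common floor called 2591 higher and 4073 lower.

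WBGene00036235 again stood out. It was 6.17 higher at 190 than at 4 cells (SE 0.37, limma adjusted p = 8.66e-08), or at least 23.3-fold, with 190-cell arrays between 1.22 and 1.36. WBGene00038738 was the member called lower, with a change of -2.33 (SE 0.39, limma adjusted p = 0.000419). Some of its probes were not above background at 4 cells, and some not at 190 cells. In the main fit the members thus included genes called higher and a gene called lower at the last stage than at the first. With spike-in scaling, without 28-cell C, 25 members were called higher and 0 lower.

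The probes of a gene gave a further description within the same arrays. The members had 123 probes, of which 120 were highest at 55 cells and 3 at 95 cells. All 3 belonged to WBGene00023862, the member with the smallest difference between 55 and 95 cells. In the other 41 members every probe was highest at 55 cells: in 29 of 29 with 2 probes and in 12 of 13 with 5. The peak height of single probes differed within a gene by a median of 0.40 and by 3.90 at the most. The lowest value of any probe was 0.97, for the B probe of a gene whose A probe gave 4.87. At 55 cells 122 of the 123 probes were well above background on all 3 arrays.

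**Figure D4:**
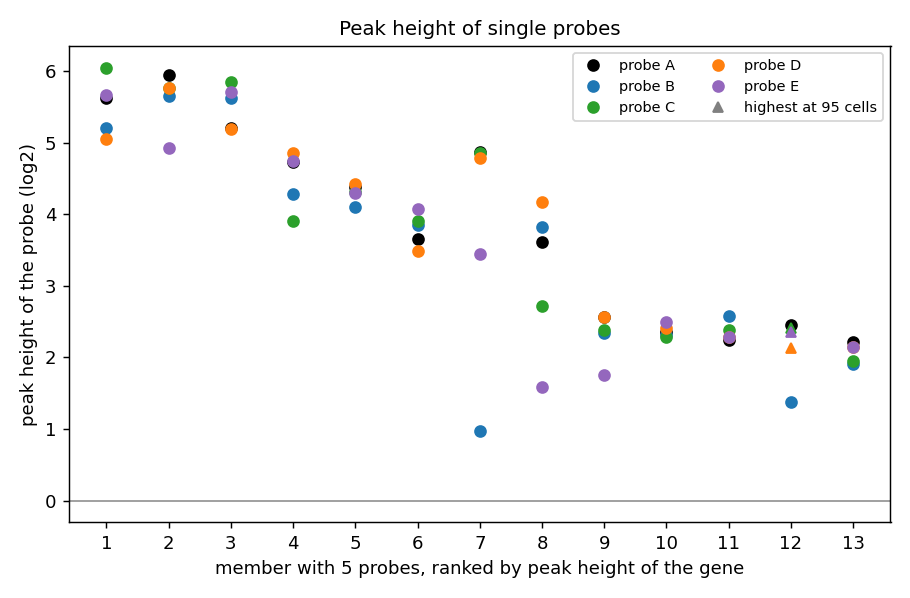
Peak height (log2) of each probe of the 13 members with 5 probes, ranked by the peak height of the gene. Colours give the probe letter and triangles mark probes highest at 95 cells. Probes of most genes lie close together, and the lowest single value is 0.97.

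13 of the 42 members (31.0%) carried 5 probes, where 795 of all 19528 genes did (4.1%) and 7.1% of the genes with a 55-cell level of at least -1. The rule did not use the number of probes. Probe numbers were set by the submitters when the array was designed, and the labels do not give the basis on which a gene received 5. The median peak height was 3.79 in the members with 5 probes and 3.17 in those with 2.

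Rules of similar form picked 418 genes that peak at 28 cells and 6 that peak at 95 cells. Their levels are descriptions for the same reason. The rule for 28 cells set no margin over the 55-cell stage and was in this respect looser than that for the members. In its genes the 55-cell level minus the 28-cell level reached -0.02, whereas in the members this difference was 0.53 at the least. The sizes and shares of these sets are therefore not compared like for like. Of the genes peaking at 28 cells, 17.9% carried 5 probes, and of the 6 peaking at 95 cells, 2. Members were called higher at 190 than at 4 cells in 54.8% and lower in 2.4%, against 29.7% and 34.2% of the genes peaking at 28 cells. They were called lower at 190 than at 95 cells in 38.1%, against 10.5% of the genes peaking at 28 cells. All 6 genes peaking at 95 cells were called higher at 190 than at 4 cells and lower at 190 than at 95 cells. At 190 cells the same probe was above background on all 3 arrays in 95.2% of the members, against 82.8% of the genes peaking at 28 cells. No probe was above background there in 0 of the 42 members, against 19 of the 418 genes peaking at 28 cells (4.5%). The sets were chosen on the same arrays by different stages, so these differences were not tested.

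Members and other genes lay close together at the limits of the rule. The member nearest to the limit on level stood at -0.96 and the nearest gene outside at -1.02. For the difference to 4 cells the values were 2.08 and 1.52, for that to 28 cells 0.53 and 0.50, and for that to 190 cells 2.01 and 1.95. For the last condition, the highest stage, the nearest member exceeded its 95-cell level by 0.05 and the nearest gene outside was 0.07 short of its highest stage. 115 genes failed only the limit at 190 cells, 51 only the level, 31 only the limit at 28 cells, 5 only that at 4 cells and 4 only the highest stage. Among the genes that failed a single condition, the limit at 190 cells was therefore the most frequent. Genes that failed several conditions were not counted.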

How the data were processed

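RNA was measured on 13 one-colour arrays. The submitters' processing notes name Agilent Feature Extraction, and the file headers give its version as 9.5.3.1. The deposited intensity of a spot is the scanner software's processed signal, with background and spatial trend subtracted per the file headers and no scaling between arrays. The deposited series table equalled the scanner output on 12 arrays (relative tolerance 1e-06). Flags (0 or 1, per the file headers) marked spots well above background, saturated or outlying.

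All 42034 gene probes were used, without a filter on dim probes. The 75th percentile of each array was subtracted from its log2 intensities. Contrasts were fitted with limma 3.58.1 in R 4.3.3 (lmFit, eBayes) on all 13 arrays, so that the stages shared an estimate of the spread, and the fit was tested on simulated data. Contrasts with the 55-cell stage were not tested, because the rule used them. Members and lists were chosen with earlier results of these data known. By the rule for named genes, extremes of peak height, level and change were named, at most 2 in a direction, since identifiers could not be paired with gene names. Planned gene lists, motifs and positions were not analysed here for the same reason. The series table had 0 columns from outside the series. No slide held more than 1 of the 12 arrays. The number of arrays limits the precision.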

Additional observations from a re-analysis of the deposited data

How the results depend on the processing

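The set held 26 genes with normexp background correction and without 28-cell C, 24 of them among the 42, and 75 with spike-in scaling and without 28-cell C, 39 of them shared. The last alternative was chosen after the data were examined, as was the first scan date alone for the calls. The other 8 alternatives gave 40 to 59 genes, of which 30 were shared with the A probe alone, 33 without the 4 arrays with a contradictory stage tag, 33 on the first scan date alone and 36 to 42 in the other 5. With each of 13 arrays left out in turn the set held 40 to 51 genes, at least 36 of them shared. Calls for 28-cell vs 4-cell stayed between 34 and 42 over 14 alternatives, and between 36 and 41 with an array left out. For 190-cell vs 4-cell a common floor gave 14 calls, 13 alternatives gave 19 to 36, and leaving out an array 17 to 25. For 190-cell vs 95-cell, 5 members were called with spike-in scaling, 5 without the 4 arrays with a contradictory stage tag, 25 with scan date as a block, and 6 to 18 with an array left out; the other 11 alternatives gave 12 to 21, and none of them called a member higher. The cause of these shifts was not tested, apart from the loss of arrays. With the replicate letter as a replicate block, 40, 25 and 15 members were called in the 3 comparisons. Deviations of same-letter arrays from their stage means correlated with r from -0.578 to 0.627, and 3 of 13 arrays correlated best with one of their own letter. This showed no pairing by letter but cannot exclude it, because arrays of the second scan date correlated with each other (r from 0.525 to 0.695). The median change of all genes depended on scaling: for 190-cell vs 4-cell it was -1.16, 0.13 with scaling on probes detected on all arrays, -0.30 with quantile normalization and -0.18 with spike-ins. No member was called lower at 28 than at 4 cells in any of these scalings.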
